A study of Homo sapiens with 8 samples.

Results

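A pair of EGFR kinase inhibitors was compared head to head in a pooled knockout screen: 10 µM erlotinib and 0.1 µM osimertinib, each given for 72 h. The comparison rests on 4 of the 8 libraries analysed here, 2 for each drug, and takes in every guide of the screen. The cells were PC9, a lung cancer line driven by mutant EGFR, which expressed Cas9 and carried TKOv3, a genome-wide collection of single guide RNAs. The remaining libraries came from cells harvested when drug was added (T0, 2 libraries) and from cells held for 72 h in DMSO (untreated, 2 libraries). All groups shared Cas9, the guide library and puromycin selection. An arm at 5 µM osimertinib is not analysed here. Because the doses differed, drug and dose cannot be told apart in any value below.

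EGFR is a receptor tyrosine kinase that signals through RAS-MAPK, PI3K-AKT-mTOR and other pathways to growth and survival. Erlotinib binds the kinase reversibly, whereas osimertinib binds it covalently. In a pooled screen, the reads of a guide report how abundant the cells with that knockout are. A gene that is higher under erlotinib is one whose knockout made up more of the population at 72 h of erlotinib than at 72 h of osimertinib, and growth and death are not separated by this measure. Below, rose and fell refer to erlotinib against osimertinib unless another comparison is named, and not to untreated cells or T0. The counts come from genomic DNA, so neither the cell type nor the loss of a protein could be checked in them.

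The erlotinib libraries held 32096281 and 32673742 reads and the osimertinib libraries 36636477 and 38116068, and the median guide had 445 to 549 reads in the 8 libraries. After the lowest 5% of guides were left out, 67531 guides and 17761 genes were tested. A gene value is the median over its guides of log2 CPM (reads scaled to library size), placed at 0 for the median non-targeting guide of the same library, and all gene values below are on this log2 scale. Replicate libraries were further apart than counting error alone would give (chi-square over its degrees of freedom, 3.20 for erlotinib and 5.18 for osimertinib). No source used here says if replicate cultures stayed separate from infection onward, and the p-values cover the spread between the sequenced libraries alone, which may be technical.

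Knockouts of 200 genes were more abundant under erlotinib than under osimertinib (1.13% of the genes tested) and knockouts of 43 were less abundant (0.242%), or 1.37% in either direction (limma, Benjamini-Hochberg adjusted p under 0.05). The median difference was 0.36 for the higher genes and -0.32 for the lower genes, against a median of 0.0077 and an SD of 0.107 over all genes. For single guides, edgeR's quasi-likelihood test called 147 higher (0.218% of the guides tested) and 75 lower (0.111%), and 0 of the 138 non-targeting guides. All kept guides lay on the same side for 166 of the higher and 37 of the lower genes. The erlotinib and osimertinib libraries did not overlap for the 243 called genes, but this also held for 40.8% of all genes. The called genes and their number depended on single libraries. Leaving out any 1 drug library, which leaves 1 library in its group, ended the call of most lower genes and many higher genes. Without either osimertinib library, many other genes were called instead.

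The largest difference was that of EIF2AK4, which encodes GCN2, the kinase that senses uncharged tRNA and phosphorylates the translation factor eIF2. Relative to T0, the value of EIF2AK4 was 0.77 and 0.89 in the erlotinib libraries, -0.14 and -0.03 in the osimertinib libraries, and -0.04 and -0.05 in the untreated libraries. The erlotinib libraries stood apart from both other groups, which lay close to T0. The difference between the drugs was 0.92 (SE 0.068, n = 2 libraries a group, adjusted p = 2.53e-06 by limma). All 4 guides to EIF2AK4 were called by edgeR, and the second of them had 1210 and 1303 reads under erlotinib against 794 and 740 under osimertinib.

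GCN1L1, the ribosome-bound protein that activates GCN2, came next among the higher genes. Its value relative to T0 was 0.34 and 0.55 under erlotinib, -0.38 and -0.38 under osimertinib, and -0.39 and -0.15 in untreated cells. The erlotinib libraries again lay above both other groups, which overlapped. The difference of GCN1L1 was 0.82 (SE 0.082, adjusted p = 8.14e-05 by limma), and all 3 guides were called. Among the 14 genes tested in the integrated stress response list, EIF2AK4 and GCN1L1 were the 2 called, and the median of the list was 0.07.

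**Figure D1:**
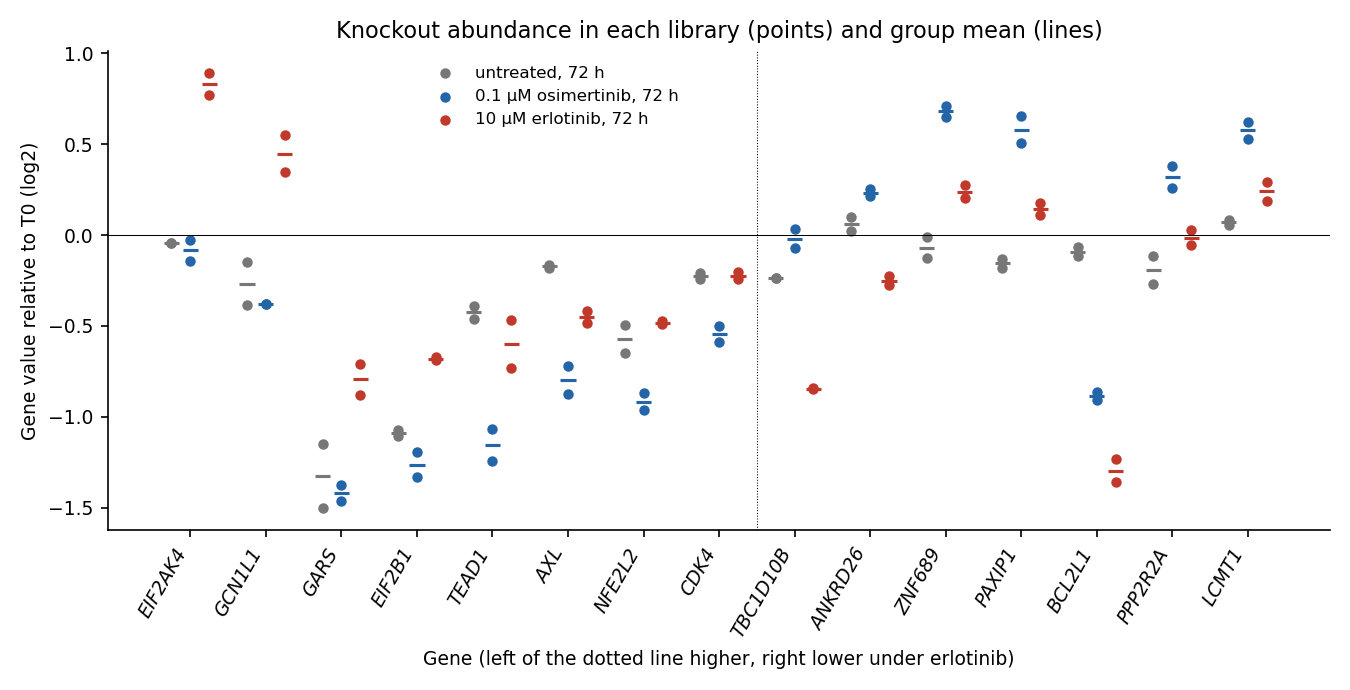
Gene value relative to T0 (log2, y axis) of 15 genes (x axis) in each untreated (grey), osimertinib (blue) and erlotinib (red) library; points are libraries and short lines are means of 2 libraries. EIF2AK4 lay at 0.77 and 0.89 under erlotinib and TBC1D10B at -0.85 and -0.84, while their osimertinib libraries lay near T0.

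Genes that charge and modify tRNA were among the higher genes. Of the 20 cytosolic aminoacyl-tRNA synthetases tested, which load amino acids onto tRNA, 7 rose and 0 fell, with a median difference of 0.26. Their knockouts were mostly lost without drug, with a median change from T0 to untreated of -1.03. Among the 178 genes in the bin of untreated change just below -1, 20.2% were higher, with a median difference of 0.18. Whether the list exceeded genes of equal loss was not tested. GARS, the glycyl-tRNA synthetase, was at -0.88 and -0.71 relative to T0 under erlotinib, at -1.46 and -1.38 under osimertinib, and at -1.15 and -1.50 in untreated cells. The GARS knockout was lost in every group, and least under erlotinib. The difference of GARS was 0.63 (SE 0.092, adjusted p = 0.00241 by limma). YARS (0.49), NARS (0.47) and FARSA (0.37) also rose, and LARS (0.11, adjusted p = 0.489 by limma) did not pass. Of the 4 guides to FARSA, 1 was at -0.02 and 0 were called on their own.

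Further tRNA and translation factors, other than YRDC and EIF2B1, were chosen for description after their values had been seen. TRNT1, which adds the CCA end to tRNA, rose by 0.72 (SE 0.095, adjusted p = 0.00138 by limma), although 1 of its 4 guides lay on the other side. YRDC, which makes a modified base of tRNA, rose by 0.59, and LAGE3 of the KEOPS complex, which completes the same modification, by 0.52. Of the 6 subunits of Elongator, which modifies the wobble base of tRNA, ELP3 (0.40), ELP4 (0.36) and ELP5 (0.36) rose. EIF2B1 (0.58) and EIF2B5 (0.37), subunits of the exchange factor that recharges eIF2, rose, and EIF2B4 was at -0.02.

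Other housekeeping complexes gave smaller shares. Over all genes tested, 1.13% were higher and 1.37% were called in either direction. In the cytosolic ribosome 5 of 53 genes rose and 48 lay above 0, with a median of 0.13. In the proteasome 4 of 44 rose, with a median of 0.14, led by PSMA7 (0.56) and the assembly chaperone PSMG3 (0.49). PSMA7 was measured by 2 guides, at 0.87 and 0.21, of which 0 were called. It lost its call with reads summed over guides (adjusted p = 0.118 by edgeR). RNA polymerase subunits had 3 of 25 higher (median 0.10), DNA replication 4 of 53 (median 0.09) and Mediator 2 of 30 (median 0.09). The mitochondrial ribosome (median 0.09, 77 genes) and respiratory complex I (median 0.07, 43 genes) had 0 called genes. The 326 olfactory receptors, which lung cells are not known to need, had 0 called and a median of -0.0030.

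**Figure D2:**
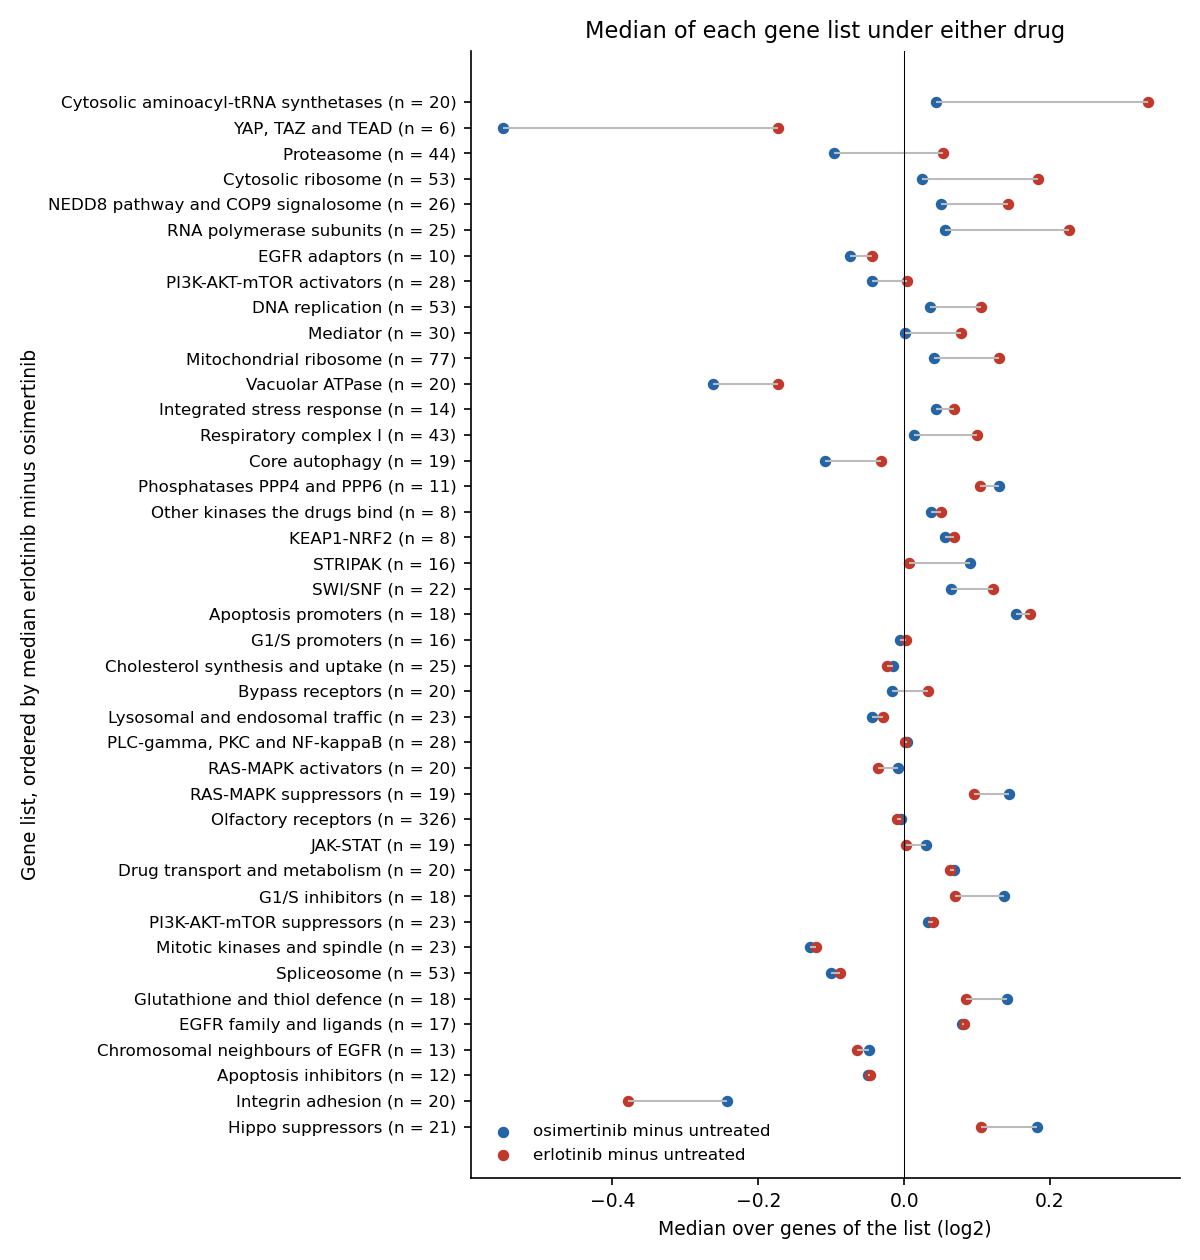
Median over the genes of each list (x axis, log2) of erlotinib minus untreated (red) and osimertinib minus untreated (blue), for 41 lists (y axis) ordered by the median difference between the drugs; both contrasts share the untreated libraries. The aminoacyl-tRNA synthetases lay at 0.33 under erlotinib and 0.04 under osimertinib, and YAP, TAZ and TEAD at -0.17 and -0.55.

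Most higher genes were ones whose knockout was lost without drug. The change from T0 to untreated compares libraries outside the drug contrast. It is not fully separate from the drug libraries, because each guide was first centred on its mean over all 8 libraries. Of the 200 higher genes, 137 (68.5%) had fallen below -0.5 in untreated cells, compared with 4 of the 43 lower genes (9.30%) and 6.95% of all genes. The median difference between the drugs was 0.22 in the 119 genes most depleted in untreated cells, 0.13 in the 365 genes with an untreated change between -1 and -0.75, and -0.0015 in the 12412 genes between -0.25 and 0. Across genes, which are not independent replicates and share guides' base composition and library depth, r was -0.34 and rho -0.22. The leading pair were not among the depleted genes: the untreated change of EIF2AK4 was -0.04 and that of GCN1L1 -0.27.

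Further genes among the 15 largest differences were as follows. DDX55, an RNA helicase of ribosome assembly, was at -0.47 and -0.42 relative to T0 under erlotinib, -1.10 and -1.03 under osimertinib, and -1.30 and -1.27 in untreated cells (difference 0.62, SE 0.064, adjusted p = 0.000108 by limma). NAA10, the catalytic subunit of an N-terminal acetyltransferase, rose by 0.62 and WDR77, a partner of the methyltransferase PRMT5, by 0.59. RFC3, a subunit of the clamp loader of DNA replication, rose by 0.55, and DPH3, which acts in diphthamide synthesis, by 0.55. The other 6 diphthamide genes tested were below 0, and DPH1 fell by 0.28. SRP14, a subunit of the signal recognition particle, rose by 0.53, MVK, the mevalonate kinase of sterol synthesis, by 0.53 and EXOSC5, a subunit of the RNA exosome, by 0.52. For DDX55, NAA10 and MVK the knockout was also less depleted under osimertinib than in untreated cells, whereas WDR77 was more depleted under osimertinib (-0.56 relative to untreated) and about level under erlotinib (0.04).

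Some other lists held 1 to 3 called genes. In cholesterol synthesis and uptake, MVK and the protease MBTPS2 (0.40) rose, while HMGCS1, the synthase at the start of the mevalonate pathway, fell by 0.28. GPX4, which detoxifies lipid peroxides, fell by 0.28 as the 1 called of 18 genes of glutathione and thiol defence, but its 4 guides were at 0.38, -0.12, -0.67 and -0.49. PIK3C3, the lipid kinase of autophagy, rose by 0.36, and NAE1, part of the enzyme that activates NEDD8, by 0.28. In the spliceosome LSM3 (0.33) and DHX8 (0.30) rose and EFTUD2, measured by 2 guides, fell by 0.40. TLN1 (-0.15, adjusted p = 0.505 by limma), PLCG1 (-0.16, adjusted p = 0.314) and PPP4C (0.10, adjusted p = 0.638) did not pass. For TLN1, 2 of the 3 guides lay above 0 (-0.32, 0.08 and 0.05).

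**Figure D3:**
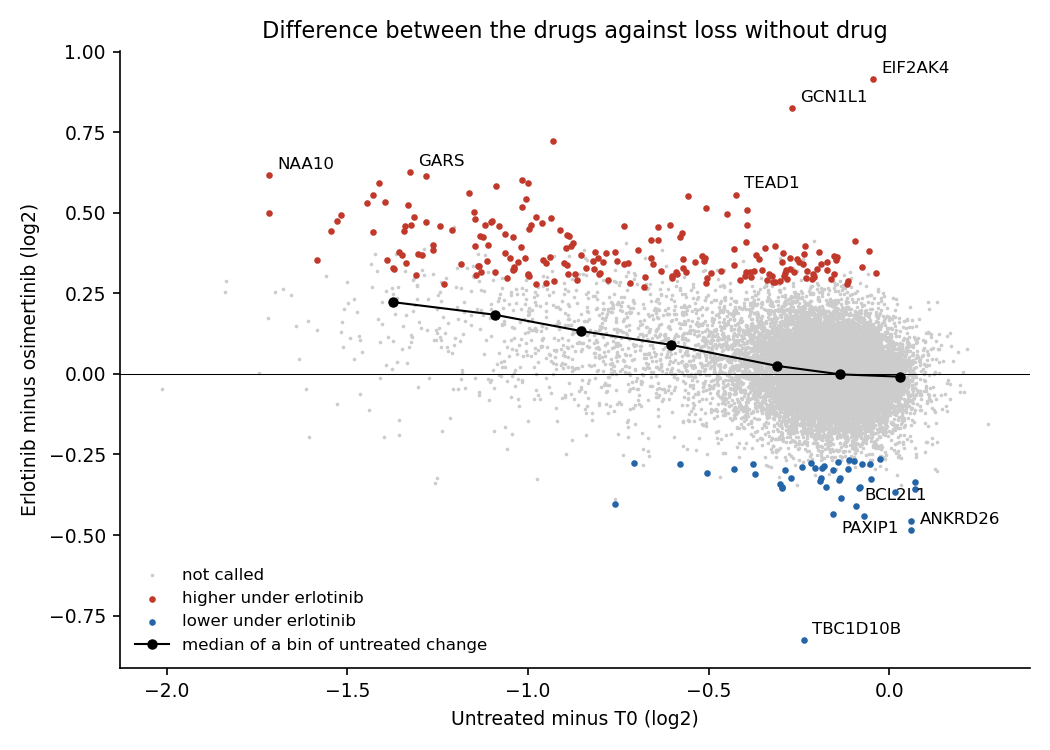
Erlotinib minus osimertinib (y axis, log2) against untreated minus T0 (x axis, log2) for 17761 genes, with called genes in red (higher, 200) and blue (lower, 43) and the median of each bin of untreated change in black. The black line runs from 0.22 in the most depleted bin to near 0 where the knockout was not lost.

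Among the YAP, TAZ and TEAD genes, which drive transcription when the Hippo pathway is off, TEAD1 was the 1 called of 6. The TEAD1 value relative to T0 was -0.73 and -0.47 under erlotinib, -1.24 and -1.07 under osimertinib, and -0.46 and -0.39 in untreated cells. The osimertinib libraries were the lowest, and did not overlap those of erlotinib. The difference of TEAD1 was 0.56 (SE 0.084, adjusted p = 0.00254 by limma), with 3 of 4 guides called. YAP1 did not pass (0.11, 95% interval -0.05 to 0.27, adjusted p = 0.573), nor did WWTR1, which encodes TAZ (0.17, 0.03 to 0.32, adjusted p = 0.267). NF2, an upstream Hippo suppressor, was at -0.20 (-0.34 to -0.07, adjusted p = 0.133 by limma). Of 21 Hippo suppressors 0 were called, against 1.37% of all genes. However, only 3 of the 21 lay above 0, and their median difference was -0.11. Their median relative to untreated was 0.11 under erlotinib and 0.18 under osimertinib.

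AXL, NFE2L2, CDK4, ITGA3 and STK11 were called members of other lists. AXL, a receptor tyrosine kinase known for bypassing EGFR, was at -0.42 and -0.48 relative to T0 under erlotinib, at -0.72 and -0.88 under osimertinib, and at -0.16 and -0.18 in untreated cells. AXL knockouts were thus depleted under both drugs, and further under osimertinib (difference 0.35, SE 0.069, adjusted p = 0.0174 by limma). NFE2L2, which encodes the antioxidant factor NRF2, was at -0.49 and -0.47 under erlotinib, -0.96 and -0.87 under osimertinib, and -0.65 and -0.50 in untreated cells (difference 0.44, adjusted p = 0.00318 by limma). KEAP1, the inhibitor of NRF2, was at -0.12 (adjusted p = 0.448) and CUL3 at 0.11 (adjusted p = 0.699). CDK4, a kinase of the G1 to S transition, rose by 0.32, ITGA3, an integrin, by 0.32, and STK11, the kinase LKB1, by 0.29. Relative to untreated, CDK4 was at 0.0018 under erlotinib and -0.32 under osimertinib, ITGA3 at -0.40 and -0.72, and STK11 at -0.27 and -0.56. Of the 4 guides to ITGA3 1 was at -0.03, and of the 4 to STK11 1 was at -0.09. Among the 20 genes of integrin adhesion, 6 lay above 0, with a median of -0.09.

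VHL, the substrate receptor of a ubiquitin ligase that degrades HIF, had a value relative to T0 of -0.68 and -0.50 under erlotinib, -1.07 and -1.31 under osimertinib, and -1.22 and -0.81 in untreated cells. The osimertinib and untreated libraries of VHL overlapped, and the erlotinib libraries lay above them. The difference of VHL was 0.60 (SE 0.109, adjusted p = 0.00938 by limma), with 0 of 4 guides called on their own. Its partner TCEB2 (0.48) and the HIF prolyl hydroxylase EGLN1 (0.36) rose as well, and were picked out after their values had been seen. Of the 7 genes of that set, 4 lay above 0. CUL2 (0.26) was not called, and RBX1 (-0.02), HIF1A (-0.10) and ARNT (-0.08) lay below 0.

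The most negative difference was that of TBC1D10B, a GTPase-activating protein for Rab proteins. Relative to T0, TBC1D10B was at -0.85 and -0.84 under erlotinib, -0.07 and 0.03 under osimertinib, and -0.23 and -0.24 in untreated cells. The drugs lay on opposite sides of the untreated libraries. The difference of TBC1D10B was -0.83 (SE 0.065, adjusted p = 3.04e-06 by limma), but its guides were unequal: 2 of 3 were called, at -0.93 and -0.93, and the other was at -0.26.

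BCL2L1 encodes BCL-XL, an inhibitor of apoptosis at the mitochondrion. Its value relative to T0 was -1.36 and -1.24 under erlotinib, -0.87 and -0.91 under osimertinib, and -0.07 and -0.12 in untreated cells. BCL2L1 knockouts were depleted under both drugs, and more under erlotinib (difference -0.41, SE 0.070, adjusted p = 0.00606 by limma). MCL1, another inhibitor of apoptosis, was at 0.10 (95% interval -0.10 to 0.30, adjusted p = 0.710 by limma). Its direction was not settled, as 2 of its 3 guides were below 0 (0.09, -0.18 and -0.45). The promoters of apoptosis APAF1 (0.08), CASP9 (0.11), BAX (0.07) and BCL2L11 (0.16) did not pass. Of the 18 genes of that list 0 were called, against 1.37% of all genes, and the median was 0.02.

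Within the PI3K-AKT-mTOR pathway few genes were called. Of 28 activators MTOR rose, by 0.30 (SE 0.067, adjusted p = 0.0359 by limma). The suppressor STK11 rose, as given above. TSC1 (-0.26, adjusted p = 0.0785), TSC2 (-0.06), PIK3CA (-0.02), PDPK1 (0.05) and ILK (-0.25, adjusted p = 0.189) did not pass.

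EGFR itself did not differ beyond the threshold. Its value relative to T0 was -0.50 and -0.45 under erlotinib, -0.44 and -0.30 under osimertinib, and -0.97 and -0.88 in untreated cells. The difference of EGFR was -0.11 (95% interval -0.25 to 0.04, adjusted p = 0.561 by limma). The lists of RAS-MAPK activators, RAS-MAPK suppressors, JAK-STAT genes and drug transport and metabolism had 0 called genes each. They held 19 or 20 tested genes each, with medians from -0.012 to 0.0047, and 1.37% of all genes were called.

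Several lower genes were ones whose knockout was more abundant under osimertinib than in untreated cells. PAXIP1, a chromatin adaptor of the KMT2C and KMT2D complexes, was at 0.11 and 0.18 relative to T0 under erlotinib, 0.51 and 0.65 under osimertinib, and -0.18 and -0.13 in untreated cells. The difference of PAXIP1 was -0.43 (SE 0.068, adjusted p = 0.00309 by limma), with 3 of 4 guides called. PPP2R2A, a regulatory subunit of the phosphatase PP2A, was at 0.03 and -0.06 under erlotinib and at 0.26 and 0.38 under osimertinib (difference -0.33, adjusted p = 0.0303 by limma). LCMT1, which methylates the PP2A catalytic subunit, was at 0.19 and 0.29 under erlotinib and at 0.53 and 0.62 under osimertinib (difference -0.34, adjusted p = 0.033 by limma). For these 3 genes the osimertinib libraries were the highest of the 6 taken at 72 h. PPP2R2A and LCMT1 did not stand for PP2A as a whole. In a set of 11 genes of PP2A and its methylation, chosen after values had been seen, 7 lay above 0 (median 0.07).

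The remaining genes among the 15 most negative were of mixed function. ANKRD26 was at -0.23 and -0.28 relative to T0 under erlotinib, 0.25 and 0.21 under osimertinib, and 0.10 and 0.02 in untreated cells (difference -0.48, SE 0.065, adjusted p = 0.00147 by limma). ZNF689, a zinc finger protein, was at 0.20 and 0.27 under erlotinib and at 0.65 and 0.71 under osimertinib (difference -0.44, adjusted p = 0.00259 by limma). ANKRD26 was below untreated under erlotinib, and ZNF689 was above it under both drugs. KMT2A, a histone methyltransferase, fell by 0.36 and CBFB, the partner of RUNX factors, by 0.36. FANCM, a helicase of DNA repair, fell by 0.37, and TPX2, a spindle assembly factor, by 0.35. CBFB was level with untreated cells under erlotinib (0.00064) and above them under osimertinib (0.36). GDAP1L1 (-0.38) and ERGIC3 (-0.35) fell too. PLK1, a mitotic kinase, fell by 0.46, but its first guide had 36 and 27 reads under erlotinib and 76 and 32 under osimertinib.

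Calls differed in how well they held under other processing. DDX55, DPH3, EIF2AK4, EIF2B1, EXOSC5, GCN1L1, MBTPS2, PAXIP1, RFC3, SRP14, TBC1D10B, YRDC and ZNF689 kept theirs in every alternative that tested them. Leaving out erlotinib replicate 2 ended the call of TEAD1 (adjusted p = 0.0555), GARS (0.0586) and NARS (0.085). BCL2L1 lost its call without erlotinib replicate 1 and with a stricter filter on low counts (adjusted p up to 0.28), and NFE2L2 with that filter (0.157). AXL, PPP2R2A, LCMT1, CDK4 and VHL each lost theirs without at least 1 of the 4 drug libraries, as did MTOR, STK11 and ITGA3. HMGCS1 kept its call in 6 of 17 alternatives (adjusted p up to 0.273), DHX8 in 6 of 17 (0.346), LSM3 in 9 of 18 (0.227), NAE1 in 8 of 18 (0.264), PLK1 in 7 of 17 (0.803) and EFTUD2 in 10 of 17 (0.97, with a value of -0.02). GPX4 lost its call under 9 of 18 alternatives, each of the 4 left-out libraries among them, and reached -0.04. FANCM, CBFB, GDAP1L1, ERGIC3, PIK3C3, FARSA, YARS, TPX2, WDR77, NAA10 and KMT2A also lost theirs without at least 1 drug library.

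**Figure D4:**
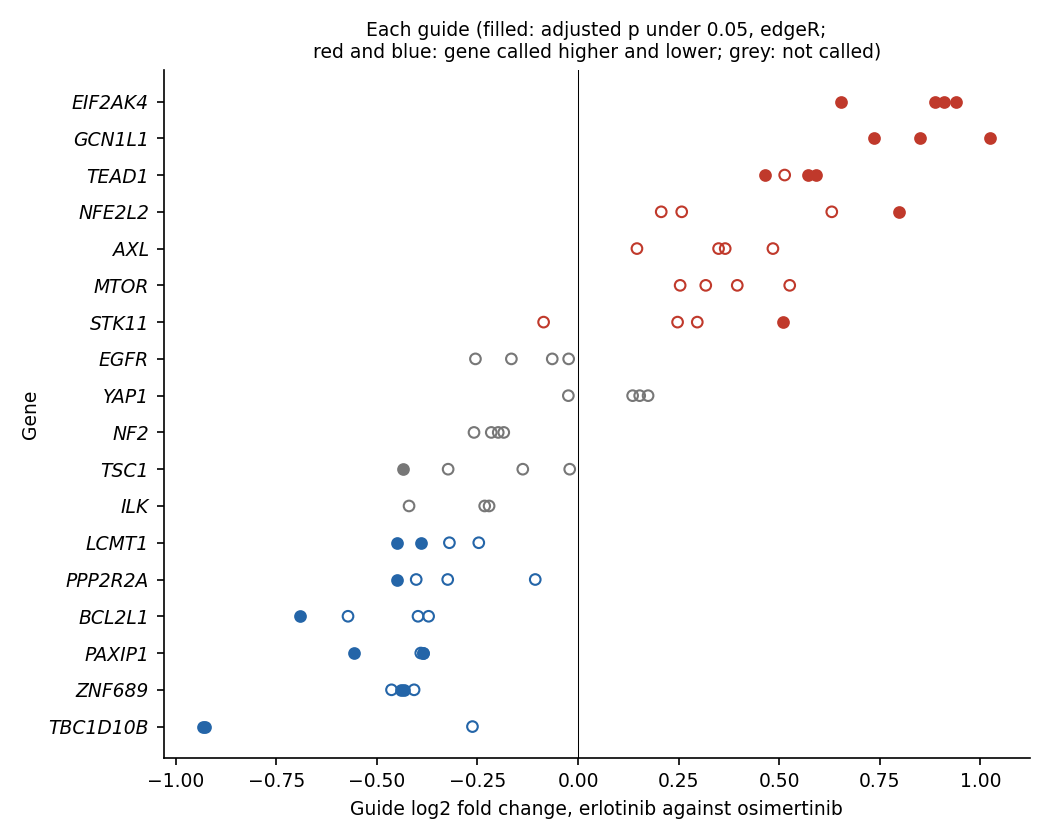
Log2 fold change of each guide, erlotinib against osimertinib (x axis), for 18 genes (y axis); filled points passed edgeR's test, and colours mark genes called higher (red), lower (blue) or not called (grey). All 4 guides to EIF2AK4 are filled and lie right of 0, and 1 of the 3 guides to TBC1D10B lies apart from the other two.

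The lower genes were unevenly spread over the genome. With genes placed by the RefSeq table of GRCh38.p14, used for chromosome and order only, 18 of the 43 lower genes (41.9%) were on chromosomes 16 and 20, which hold 6.97% of the placed genes. On chromosome 16, 8 of the 9 lower genes lay in the 90 tested genes from PLK1 to ORAI3, among them LCMT1, PAGR1, TBC1D10B and ZNF689. PLK1 and ORAI3 are themselves lower genes, so the stretch was drawn from the calls. Its counts and medians describe it and are no separate test. Of those 90 genes 78 were below 0, with a median difference of -0.14. Their median was 0.09 for erlotinib minus untreated and 0.23 for osimertinib minus untreated. On chromosome 20, 76.2% of genes were below 0 (median -0.07) and 9 were called lower, BCL2L1 and TPX2 among them. Chromosome 19 ran the other way, with a median of 0.06, 24 genes higher and 1 lower.

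When each gene was set against the median of its 20 nearest tested neighbours on either side, an alternative chosen after seeing the data, 132 of the 200 higher and 18 of the 43 lower genes were called again. TBC1D10B (-0.66), BCL2L1 (-0.34), PAXIP1 (-0.40) and EIF2AK4 (0.82) kept their call. LCMT1 (-0.25, adjusted p = 0.143 by limma) and TPX2 (-0.29, 0.082) lost it. So did ERGIC3 (-0.23, 0.218) and GDAP1L1 (-0.28, 0.164) on chromosome 20. On chromosome 19, AXL (0.25, 0.107), STK11 (0.25, 0.0942) and FARSA (0.32, 0.102) lost theirs. Other genes described above that lost theirs were MTOR, CDK4, ITGA3, PLK1, HMGCS1, LSM3, DHX8 and NAE1.

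**Figure D5:**
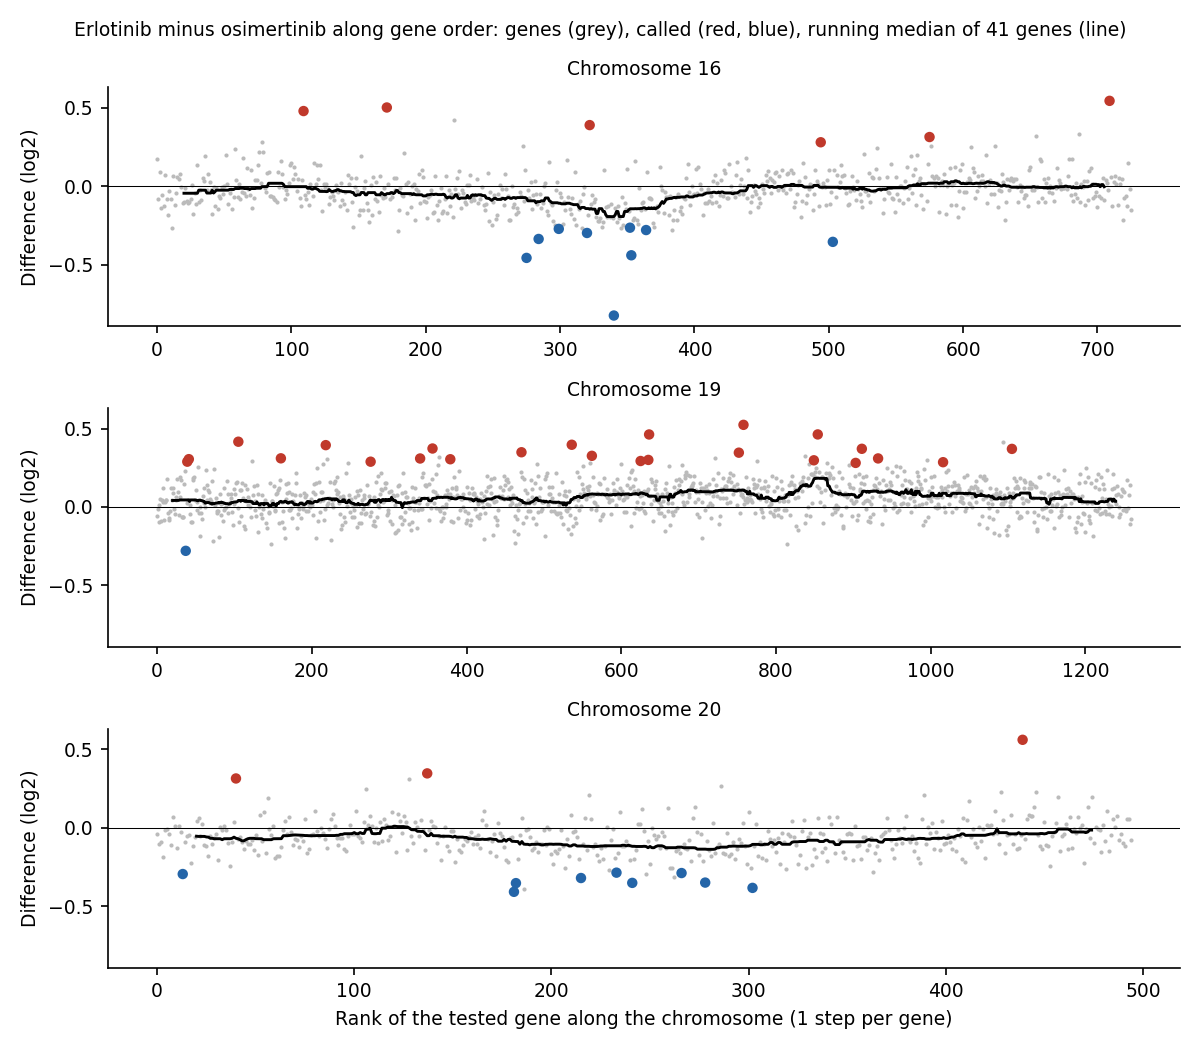
Erlotinib minus osimertinib (y axis, log2) against rank along chromosomes 16, 19 and 20 (x axis); grey points are tested genes, red and blue points are called genes and the line is the running median of 41 genes. The line reaches -0.19 on chromosome 16, -0.14 on chromosome 20 and 0.18 on chromosome 19.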

How the data were processed

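Guide inserts were amplified from genomic DNA by PCR without molecular identifiers, so reads are not independent molecules. The authors trimmed reads, mapped them to the guide library with 1 mismatch allowed (Bowtie2 per the methods, Bowtie 1.3.1 per the submitters' processing notes) and deposited raw counts per guide. The table held 71090 guides; 50 gene names had been turned into amounts, of which 49 were restored and 1 was left out. The lowest 5% of guides by mean were removed, as in the methods. Guides were scaled by TMM (edgeR 4.0.16), taken as log2 CPM with a prior count of 1, centred on their own mean, and combined per gene by the median (at least 2 guides) minus the median of non-targeting guides. Limma 3.58.1 was fitted over all 8 libraries by group, and edgeR's quasi-likelihood test was run on guide counts. The methods' empirical test against non-targeting guides was not used. Both steps were tested on simulated data. Named genes were the 15 largest and 15 most negative called genes with at least 3 kept guides, all of them on the same side, up to 4 called genes of each of 41 lists, and a fixed set of pathway genes; 1 gene so picked is not reported here. Members and lists were chosen with earlier results of these data known. Same-numbered libraries did not deviate together (r from -0.00355 to 0.0164), so replicate numbers were not used as pairs.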

Additional observations from a re-analysis of the deposited data

Results flagged for a closer look

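For 6 of the genes with the largest differences, every erlotinib library lay on one side of both untreated libraries and every osimertinib library on the other. The difference between the drugs was 0.5833 for EIF2B1, 0.5516 for DPH3, 0.5233 for EXOSC5, -0.8251 for TBC1D10B, -0.4843 for ANKRD26 and -0.3567 for KMT2A, each past the limma threshold in the direct comparison of the drugs. The same arrangement was found for 474 of all genes tested (2.67%), and for 56 of the higher and 11 of the lower genes.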

How the results depend on the processing

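With 1 library left out in turn, the genes higher ranged from 53 to 201 and the genes lower from 6 to 50, and the guides higher from 22 to 337 and lower from 7 to 235. In the fits without an osimertinib library, many of the called genes were not among those called with all libraries. Without the filter on low counts 21 genes were lower, without centring 114 were higher and 13 lower, and with the erlotinib and osimertinib libraries alone 22 genes were lower and 73 guides higher. Reads summed over guides (edgeR) gave 351 genes higher and 250 lower, and DESeq2's Wald test 70 guides higher and 35 lower. Relative to chromosomal neighbours, chosen after seeing the data, 22 genes were lower. FANCM was at 0.004852 without centring and RPA3 at -0.0256 with reads summed over guides, and the cause was not tested. With the replicate block, 221 genes were higher and 46 lower, of which 196 and 41 were among those of the fit without it. Of 63 named called genes, 13 kept their call under every alternative, EIF2AK4, GCN1L1 and PAXIP1 among them. Of the named genes that did not pass, NF2, TSC1, CASP9 and PLCG1 passed with reads summed over guides and ILK with a stricter filter on low counts. With 2 libraries a group, an exact permutation test of a single value cannot go below p = 0.333, and guides with few reads, such as those to PLK1, limit what their genes can show.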
